A study of Mus musculus with 16 samples.

Results

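The thioredoxin system was followed as the 7 transcripts Txnrd1, Txnrd2, Txnrd3, Txn1, Txn2, Txnip and Txndc1, taken by gene name whatever their values, out of 28100 gene names on the array. They were read by 12 of the 41174 probes on the array that are not controls, with 1 probe each for Txnrd1, Txnrd3 and Txn1, 3 for Txnrd2 and 2 each for Txn2, Txnip and Txndc1. All 12 probes were among the 30749 that passed the filter on dim probes, and all were well above background on 16 of 16 arrays. Where a gene has several probes, probe 1 is the brightest.

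Lung RNA came from 16 female mice of the A/J strain, which is prone to lung tumours, 4 in each of 4 groups. The NNK+SECY mice received both agents, the SECY mice selenocystine only, the NNK mice NNK only, and the Untreated mice neither. NNK, a nitrosamine of tobacco, was injected once into the peritoneum as 0.2 mL of saline at 10 uM, and injected mice were killed 13 days later. Selenocystine, the diselenide form of selenocysteine, was fed at 15 ppm for 10 days, and the NNK+SECY mice began it 3 days after the injection. All mice ate an AIN-76 diet that held 0.35 ppm selenium. The labels name no injection of saline alone, so NNK and the injection itself cannot be told apart. On each array 1 mouse's RNA was in Cy5 and an equal mix of the 4 untreated RNAs was in Cy3, with no dye swap. The Untreated arrays therefore set single mice against a pool that holds them.

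Thioredoxins are small proteins that reduce disulfide bonds in other proteins and are themselves reduced by thioredoxin reductases, selenoproteins that draw electrons from NADPH. Txn1 and Txnrd1 form the cytosolic pair and Txn2 and Txnrd2 the mitochondrial pair. Txnip binds reduced thioredoxin and blocks it. Txnrd1 is a textbook target of NRF2, a transcription factor of the antioxidant response that acts at antioxidant response elements, and Txnip is a textbook target of glucose-sensing factors that bind paired E-boxes.

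Promoter sequences of the members that carry the results, and of Srxn1, whose pattern came closest to that of Txnrd1, are shown as the 250 bases before the annotated start (RefSeq, GRCm38.p6, 5′ to 3′ in the direction of the gene). All 7 members were found in that table under their current symbols, Txndc1 as Tmx1. Capitals mark matches, on either strand, to TGACNNNGC or TGAGNNNGC, the 2 core forms of the antioxidant response element, or to a paired E-box, written as 2 copies of CACGNG with 5 bases of any kind between them. The lines give Txnrd1 at chr10:82858956-82859205 on the plus strand, the second of 3 annotated starts, Txn1 at chr4:57956412-57956661 on the minus strand, Srxn1 at chr2:152105274-152105523 on the plus strand and Txnip at chr3:96557707-96557956 on the plus strand.
Txnrd1: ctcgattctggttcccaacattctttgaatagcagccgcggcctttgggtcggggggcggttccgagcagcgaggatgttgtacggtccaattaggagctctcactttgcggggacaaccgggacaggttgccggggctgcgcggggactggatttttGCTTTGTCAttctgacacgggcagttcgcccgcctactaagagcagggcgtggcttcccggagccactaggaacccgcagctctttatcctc
Txn1: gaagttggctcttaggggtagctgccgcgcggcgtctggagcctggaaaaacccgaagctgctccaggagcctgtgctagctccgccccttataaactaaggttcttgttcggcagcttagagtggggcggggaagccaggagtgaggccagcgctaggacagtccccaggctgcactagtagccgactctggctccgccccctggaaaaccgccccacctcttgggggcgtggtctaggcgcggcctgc
Srxn1: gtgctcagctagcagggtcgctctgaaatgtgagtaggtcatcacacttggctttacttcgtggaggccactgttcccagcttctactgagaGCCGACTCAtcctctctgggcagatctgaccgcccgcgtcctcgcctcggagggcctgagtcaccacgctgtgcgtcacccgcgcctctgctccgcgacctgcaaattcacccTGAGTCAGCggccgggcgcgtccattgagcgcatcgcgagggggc
Txnip: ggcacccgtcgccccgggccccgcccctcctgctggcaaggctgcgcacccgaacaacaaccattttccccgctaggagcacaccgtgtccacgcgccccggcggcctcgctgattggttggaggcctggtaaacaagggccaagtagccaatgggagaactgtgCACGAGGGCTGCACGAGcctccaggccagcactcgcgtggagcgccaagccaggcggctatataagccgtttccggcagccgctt
TGACNNNGC was in 10.2% of all 32851 promoter windows of this length, TGAGNNNGC in 14.4% and the paired E-box in 0.0457%, which is 15 windows. Among the members, the window of Txnrd1 shown above holds TGACNNNGC on the reverse strand, as GCTTTGTCA, with its first base 92 bases before the start. The windows of the 2 other annotated Txnrd1 starts hold none of the 3 motifs. The Txn1 window holds none either. Srxn1 holds TGAGNNNGC 2 times, as GCCGACTCA on the reverse strand and TGAGTCAGC on the forward strand. Of the other genes whose pattern came close to that of Txnrd1, Gstp1 also holds TGAGNNNGC 2 times. The windows of Nqo1 and Aox1, which came close as well, hold none of the 3 motifs. The Txnip window is 1 of the 15 with the paired E-box, as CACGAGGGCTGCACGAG, beginning 85 bases before the start. Among the other members, Txnrd3 and Txn2 each hold TGAGNNNGC 1 time on the reverse strand. A match is only a run of letters, and binding was not measured.

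The arrays were checked before the members were compared. Median spot signals were 71.2 to 105 in Cy5 and 67.5 to 93.4 in Cy3. The 8 arrays of fed mice had 75.0% to 79.3% of spots well above background in Cy5, and the 8 arrays of unfed mice had 66.3% to 72.6%. By the slide numbers in the file headers, fed and unfed mice lie on separate sets of 4 slides, so the slide set and the diet cannot be told apart. Each number stands on the arrays of 1 NNK-injected and 1 uninjected mouse, which were scanned on separate days, so the scan day and NNK cannot be told apart, and whether the 2 arrays were on 1 physical slide is not settled. Correlations between arrays were taken over 24919 tested probes that were well above background in Cy5 and had a value on all 16 arrays. SECY 3 stood apart from its group, with a mean correlation of 0.0229 with the other SECY arrays. The other 15 arrays ranged from 0.118 to 0.567 with their own groups. Member results that move without SECY 3 are given both ways. All 14 lung epithelium markers were well above background on all 16 arrays.

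The diet comparisons asked which members differed after 10 days of selenocystine, with SECY set against Untreated and NNK+SECY against NNK. Txnrd1 rose in both, Txn1 rose when both diet comparisons were averaged, and no other member passed the test. By limma, with p-values adjusted over all probes tested and a threshold of 0.05, 1 of 12 member probes rose and none fell in SECY over Untreated, where 0.283% of all probes passed, made up of 0.195% higher and 0.0878% lower. That whole-array count, 87 probes with 60 higher and 27 lower, was 315 with 69 higher and 246 lower without SECY 1, and 125 with 89 higher and 36 lower without SECY 3. With the replicate number as a block it was 167, with 67 higher and 100 lower. In NNK+SECY over NNK 1 of 12 rose and none fell, against 1.56% of all probes, made up of 0.289% higher and 1.28% lower. With both diet comparisons averaged 2 of 12 rose and none fell, against 2.16% of all probes, made up of 0.569% higher and 1.59% lower. That whole-array count was 664, with 175 higher and 489 lower, and without SECY 3 it was 1108, with 391 higher and 717 lower. The median change of the 12 probes in the averaged comparison was 0.02 on the log2 scale, against -0.0018 over all probes tested.

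Txnrd1, the cytosolic reductase, had log2 ratios over the pool of 1.08, 0.95, 0.66 and 0.67 in the SECY mice, against 0.10, -0.07, 0.06 and 0.02 in the Untreated mice. The NNK+SECY mice had 0.79, 0.87, 0.70 and 1.05, against 0.16, 0.08, -0.02 and 0.01 in the NNK mice. All 8 fed mice were higher than all 8 unfed mice, with a wide gap between the lowest fed and the highest unfed value. Txnrd1 rose by 0.81 ± 0.09 (log2 fold change ± SE, n = 4 per group, limma adjusted p = 0.00017) in SECY over Untreated, which is 1.75-fold. In NNK+SECY over NNK the rise was 0.79 ± 0.09 (limma adjusted p = 0.000234). Averaged over both comparisons it was 0.80 ± 0.06 (95% confidence interval 0.67 to 0.94, limma adjusted p = 1.4e-06), or 1.74-fold, the 18th smallest p of 30738 probes. In bulk lung, more cells of a type and more RNA per cell cannot be told apart.

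The change of Txnrd1 was in the colour that held the mice's own RNA. Its normalized Cy5 signal was 1375 to 1938 in SECY mice, against 887 to 1014 in Untreated mice, and 1369 to 1768 in NNK+SECY mice, against 839 to 1054 in NNK mice. The averaged diet change was 0.75 in log2 Cy5 signal and -0.05 in the log2 Cy3 signal of the pool. The plot of signal in each colour shows the Cy3 points of Txnrd1 level across the 4 groups.

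**Figure D1:**
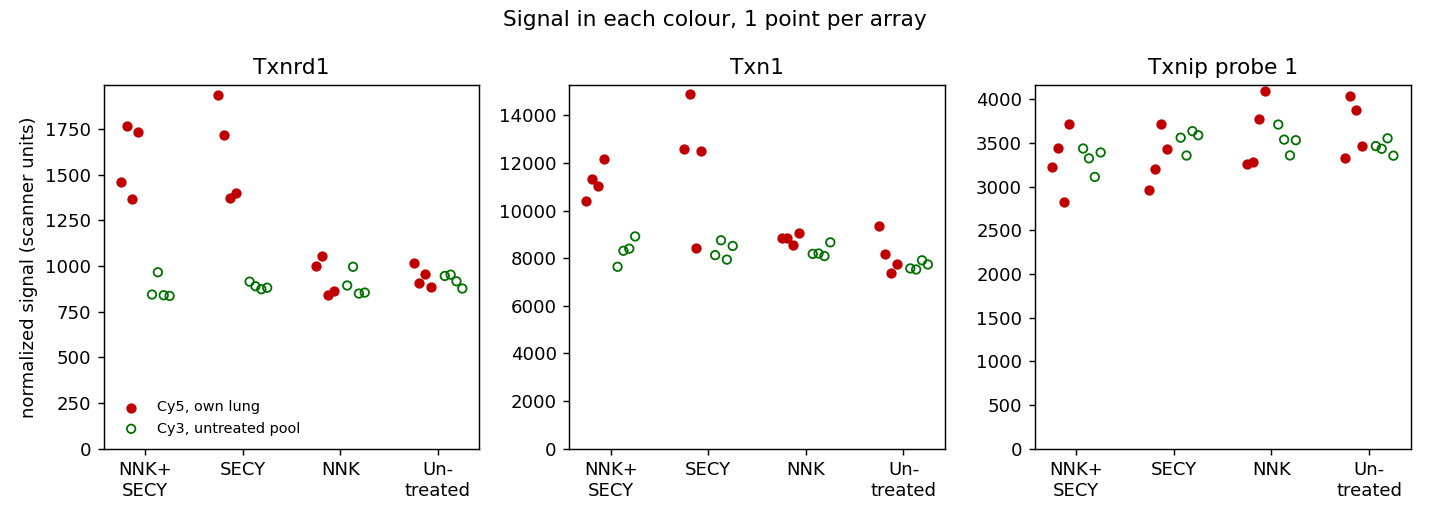
Normalized signal in scanner units (y axis, from 0) of Txnrd1, Txn1 and Txnip probe 1 in each group, 1 point per array, with the mouse's own lung RNA in Cy5 as filled points and the untreated pool in Cy3 as open points. For Txnrd1 the Cy5 points of the fed groups lie between 1369 and 1938 and those of the unfed groups between 839 and 1054, and for Txn1 the SECY 3 array lies at 8432, below the other fed arrays.

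Txn1, the cytosolic thioredoxin that Txnrd1 reduces, had Cy5 signals from 7389 to 14906 over the 16 arrays. Its log2 ratios were 0.63, 0.77, 0.09 and 0.55 in SECY mice, against 0.31, 0.12, -0.10 and 0.00 in Untreated mice. They were 0.45, 0.45, 0.40 and 0.45 in NNK+SECY mice, against 0.11, 0.11, 0.08 and 0.06 in NNK mice. The groups with NNK did not overlap, while SECY and Untreated overlapped through the low value of SECY 3 and the high value of Untreated 1.

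Averaged over both diet comparisons, Txn1 rose by 0.39 ± 0.08 (95% confidence interval 0.22 to 0.55, limma adjusted p = 0.00875), or 1.31-fold. The averaged change was 0.45 in log2 Cy5 signal and 0.06 in log2 Cy3 signal. Each comparison alone missed the threshold, at 0.43 ± 0.11 (n = 4 per group, limma adjusted p = 0.132) in SECY over Untreated and 0.34 ± 0.11 (limma adjusted p = 0.205) in NNK+SECY over NNK. Without SECY 3 the SECY over Untreated change was 0.57 ± 0.07 and passed (limma adjusted p = 0.00111), and the averaged change was 0.46.

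Txnrd2, the mitochondrial reductase, did not pass the test with any of its 3 probes. Probe 1 had log2 ratios of -0.09, -0.29, 0.05 and -0.27 in SECY mice, against -0.36, -0.20, -0.26 and -0.21 in Untreated mice, and of -0.14, -0.19, -0.38 and -0.29 in NNK+SECY mice, against -0.10, -0.20, -0.20 and -0.25 in NNK mice. These groups overlapped in both comparisons. Probe 2 had -0.18 to -0.10 in NNK+SECY mice, against -0.15 to -0.01 in NNK mice. The averaged diet changes of the 3 probes were 0.02, -0.03 and 0.02, with 95% confidence intervals that together ran from -0.10 to 0.13. Probe 3 was dim, with Cy5 signals of 67.0 to 79.3, close to the offset of 50 that was added to every signal and which pulls ratios of dim probes towards 0. In Cy5 signal alone probe 1 was 0.25 higher in fed mice, and the Cy3 signal of the pool on the same arrays was 0.23 higher.

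Txn2, the mitochondrial thioredoxin, also did not pass. Its probe 1 had log2 ratios of -0.07 to 0.01 in SECY mice, against -0.03 to 0.11 in Untreated mice, and of -0.08 to 0.06 in NNK+SECY mice, against -0.03 to 0.10 in NNK mice. Probe 2 had 0.10 to 0.19 in SECY mice, against 0.16 to 0.19 in Untreated mice, and 0.11 to 0.23 in NNK+SECY mice, against 0.09 to 0.20 in NNK mice. The groups overlapped with both probes. The 2 probes had averaged diet changes of -0.05 ± 0.03 and -0.0035 ± 0.03 (limma adjusted p = 0.58 and 0.979).

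Txnrd3, a reductase with a fused glutaredoxin domain that is best known from testis, had log2 ratios of -0.10 to 0.05 in SECY mice, against -0.15 to -0.01 in Untreated mice. The NNK+SECY mice had -0.08 to -0.04, against -0.17 to -0.06 in NNK mice. The averaged diet change was 0.06 ± 0.03 (95% confidence interval -0.0095 to 0.13, limma adjusted p = 0.514), and the groups overlapped in both comparisons.

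**Figure D2:**
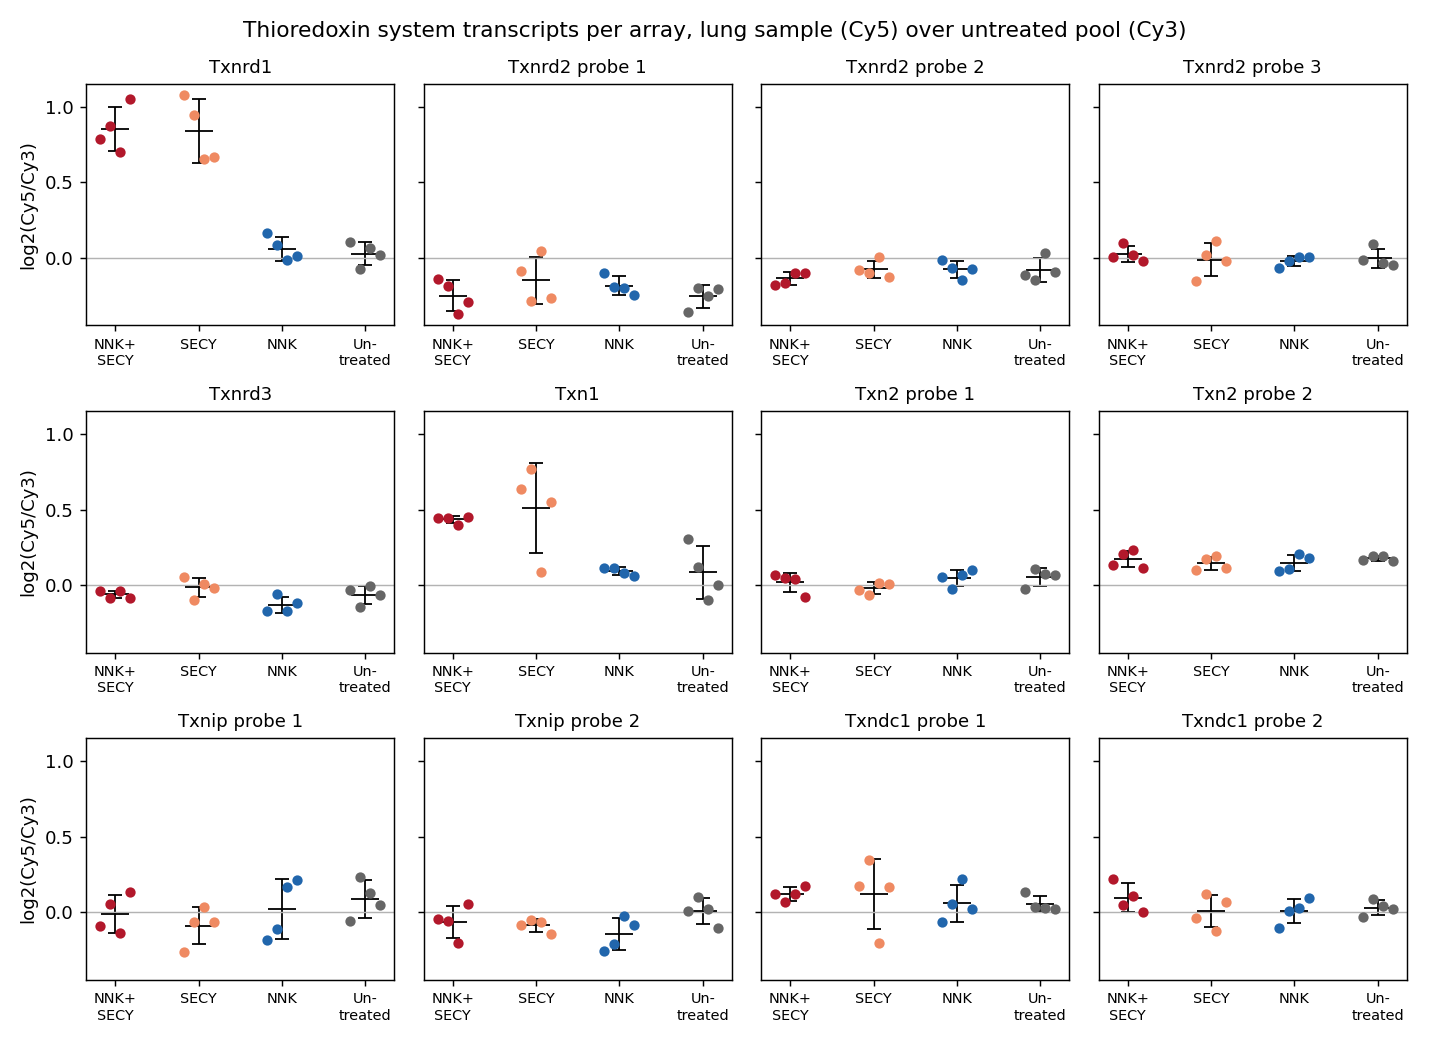
Log2 ratio of Cy5 over Cy3 (y axis) of each member probe in the 4 groups, with 1 point per array, a bar at the group mean and whiskers of 1 SD (n = 4). The Txnrd1 points of both fed groups lie at 0.66 or above and those of both unfed groups at 0.16 or below. For Txn1 NNK+SECY and NNK lie apart, while SECY and Untreated overlap. For the other probes the fed and unfed groups overlap in both comparisons.

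The change of Txnrd1 was set against that of each other gene within the same arrays, which compares unequal change and not levels. Genes with several probes entered with probe 1. The log2 ratio of Txnrd1 minus that of Txnrd2 averaged 1.05 ± 0.23 in fed mice, against 0.27 ± 0.10 in unfed mice (SD, n = 8 each). The difference of 0.78 had p = 0.000408 in a two-sided exact permutation test within the NNK-injected and uninjected mice, the smallest p that the 4900 permutations can give, and 0.00049 adjusted over 6 pairs. The same smallest p was reached against Txnrd3 (0.74), Txn2 (0.86), Txnip (0.91) and Txndc1 (0.74), with all 8 fed mice higher than all 8 unfed mice in each. Txnrd2, Txnrd3, Txn2, Txnip and Txndc1 had averaged diet changes of only -0.11 to 0.07. Txnrd1 was set as the reference with earlier results of these data known. It alone already parted all 8 fed from all 8 unfed mice, so these pairs largely repeat its rise and are not separate evidence. Against Txn1 the difference was 0.42 (exact permutation p = 0.000816, also after adjustment), with 7 of 8 fed mice higher than every unfed mouse. Arrays of the same slide number may not be independent, so the 8 slide means were also permuted, 4 of fed against 4 of unfed mice, an alternative chosen after seeing the data. All 6 pairs then had a two-sided exact permutation p of 0.0286, also after adjustment, the smallest that 70 arrangements can give. The rise of Txnrd1 was larger than the change of each of the 6 other genes, Txn1 included. For the pairs other than Txn1 the slide test, too, largely repeats that rise. Side by side and with no test, Txn1 had an averaged diet change of 0.39 and Txn2 of -0.05.

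**Figure D3:**
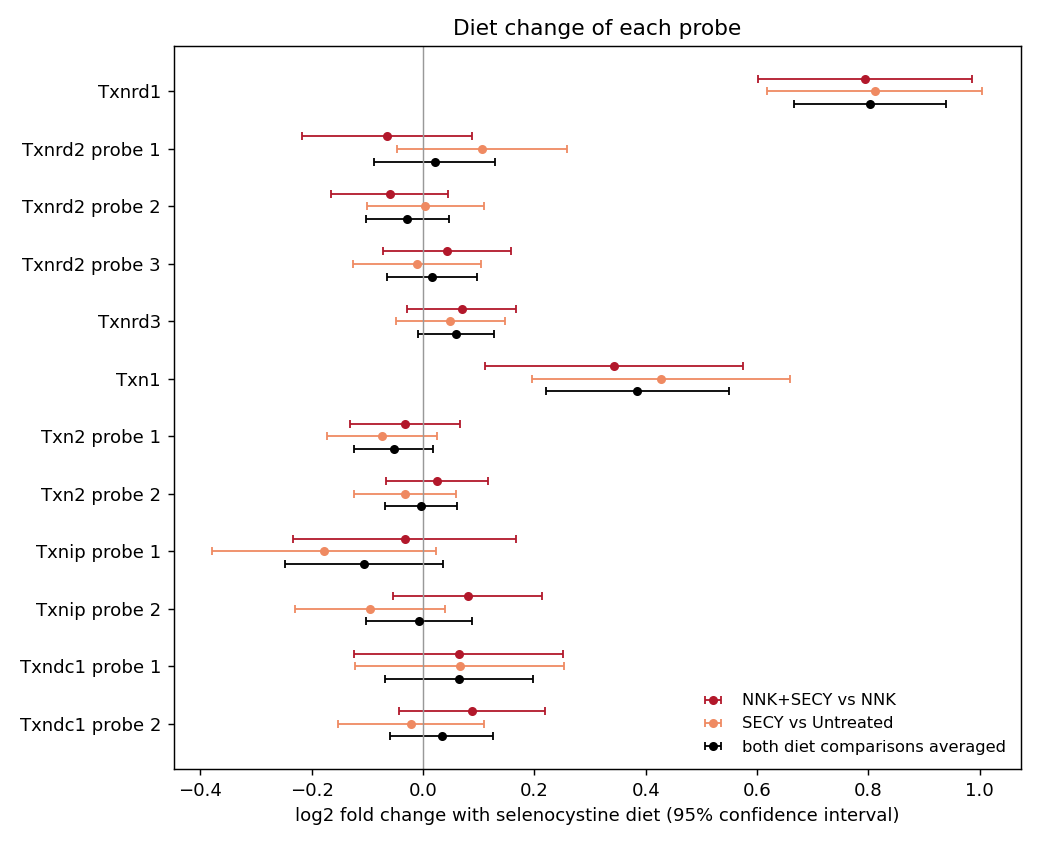
Log2 fold change with the selenocystine diet (x axis, with 95% confidence intervals) of the 12 member probes, for NNK+SECY over NNK, for SECY over Untreated and for both averaged. The intervals of Txnrd1 lie from 0.60 to 1.00, those of Txn1 lie above 0, and the averaged intervals of the other 10 probes include 0.

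Txnip, the inhibitor of thioredoxin, did not pass in any comparison. Probe 1 had log2 ratios of -0.26, -0.07, 0.03 and -0.07 in SECY mice, against -0.06, 0.23, 0.12 and 0.05 in Untreated mice. It had -0.09, 0.05, -0.14 and 0.13 in NNK+SECY mice, against -0.19, -0.11, 0.17 and 0.22 in NNK mice. The values spread widely within every group and the groups overlapped. The averaged diet change was -0.11 ± 0.07 with probe 1 (95% confidence interval -0.25 to 0.04, limma adjusted p = 0.591) and -0.01 ± 0.04 with the dimmer probe 2.

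Txndc1, a thioredoxin-fold protein of the endoplasmic reticulum membrane now named Tmx1, did not pass either. Probe 1 had log2 ratios of 0.17, 0.35, -0.21 and 0.17 in SECY mice, against 0.13, 0.03, 0.02 and 0.02 in Untreated mice. The NNK+SECY mice had 0.12, 0.06, 0.12 and 0.17, against -0.07, 0.05, 0.22 and 0.02 in NNK mice. SECY 3 was again the low array and the groups overlapped in both comparisons. The averaged diet changes were 0.07 ± 0.06 with probe 1 (limma adjusted p = 0.75) and 0.03 ± 0.04 with probe 2. Without SECY 3 the change of probe 1 was 0.12 (limma adjusted p = 0.161).

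No member probe passed the test for NNK. In NNK over Untreated none was called, against 0.211% of all probes by limma, and 1 had an unadjusted p below 0.05. That share is 65 probes, and the count was 18 without Untreated 3, 19 without NNK 3 or without NNK 4, 22 without NNK 2, 28 without Untreated 1, 31 without Untreated 2 and 137 without NNK 1. The member probe with an unadjusted p below 0.05 was Txnip probe 2, with log2 ratios of -0.26, -0.21, -0.03 and -0.09 in NNK mice, against 0.01, 0.10, 0.02 and -0.10 in Untreated mice, a change of -0.15 ± 0.06 (limma adjusted p = 0.96). Probe 1 of the same gene changed by -0.07 ± 0.10 in that comparison. In NNK+SECY over SECY none of the 12 was called and none had an unadjusted p below 0.05, against 0.00651% of all probes called by limma. Txnrd1 differed by 0.03 ± 0.09 in NNK over Untreated (95% confidence interval -0.16 to 0.23) and by 0.02 ± 0.09 in NNK+SECY over SECY (-0.18 to 0.21). Within the 8 pairs of arrays with the same slide number, Txnrd1 in the NNK-injected mouse minus the uninjected one ran from -0.29 to 0.38 and was above 0 in 4.

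The interaction asked whether the diet change differed between NNK-injected and uninjected mice. None of the 12 probes passed and none had an unadjusted p below 0.05, against 0.00651% of all probes by limma, made up of 0.00325% higher and 0.00325% lower. For Txnrd1 the diet change with NNK minus that without it was -0.02 ± 0.13 (95% confidence interval -0.29 to 0.26), and for Txn1 it was -0.09 ± 0.15 (-0.41 to 0.24). These intervals bound the difference and do not show that the changes were equal. In NNK+SECY over Untreated 1 of 12 rose, Txnrd1 by 0.83 ± 0.09 (limma adjusted p = 0.000138), where 1.44% of all probes passed. That share is 443 probes. Leaving out NNK+SECY 4 gave 233 and leaving out NNK+SECY 1 gave 275, and the count was 247 when Untreated 3 was left out and 276 when Untreated 1 was.

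The wider thioredoxin pathway was read in the averaged diet comparison, where 0.569% of all probes were called higher and 1.59% lower. Of 16 measured peroxiredoxins and other proteins that thioredoxin reduces, 2 rose and none fell, with a list median of 0.04. Srxn1, sulfiredoxin, which restores overoxidized peroxiredoxins, rose by 1.32 ± 0.09 (limma adjusted p = 1.93e-07), and its 2 dimmer probes gave 0.58 and 0.45. Prdx6, a peroxiredoxin that draws on glutathione rather than thioredoxin, rose by 0.38 ± 0.07 (limma adjusted p = 0.00622), with 0.42, 0.08 and 0.35 by its other 3 probes. Prdx1, a main substrate of Txn1, had 0.26 ± 0.12 (limma adjusted p = 0.386), and Prdx3, its mitochondrial relative, had 0.04 ± 0.04.

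Of 11 measured glutaredoxins and thioredoxin-like proteins of the cytosol, 1 rose, with a list median of -0.0043. It was Gsr, glutathione reductase, the counterpart of Txnrd1 in the glutathione system, at 0.49 ± 0.06 (limma adjusted p = 7.84e-05), and its other 2 probes gave 0.42 and 0.39. Of 17 other selenoproteins 1 rose, Gpx2, a glutathione peroxidase of epithelia, by 0.97 ± 0.08 (limma adjusted p = 1.39e-06), with a list median of 0.01. Gpx1, the ubiquitous glutathione peroxidase, had 0.0002 ± 0.06. Of 17 proteins of the endoplasmic reticulum with a thioredoxin fold or tied to it, none rose and 1 fell. That was Ero1lb, an oxidase that feeds disulfides to protein disulfide isomerase, which fell by 1.23 ± 0.16 with its brightest probe (limma adjusted p = 0.000177), while its 2 other probes gave 0.0002 and 0.0069. The brightest probe changed by -0.94 in log2 Cy5 signal and by 0.29 in the log2 Cy3 signal of the pool. Of 11 alpha-arrestins and genes tied to Txnip 1 rose, Slc2a1, a glucose transporter that Txnip restrains, by 0.29 ± 0.06 (limma adjusted p = 0.00989).

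Of 20 NRF2 targets beside Txnrd1, 16 rose and none fell, with a list median of 0.41. All 20 were above 0, but the lowest was 0.0025, and in SECY over Untreated 19 of 20 were above 0. Hmox1 had the smallest change of the list in NNK+SECY over NNK, 0.05 ± 0.07 (limma adjusted p = 0.89). Srxn1, Gsr, Gpx2 and Prdx1 stand both here and in a list above. The list was drawn up with earlier results of these arrays known and is not independent evidence. Nqo1, a quinone reductase, rose by 1.41 ± 0.09 (limma adjusted p = 1.77e-07) and Gsta3, a glutathione transferase, by 1.02 ± 0.06 (limma adjusted p = 2.2e-08). Pgd, an enzyme of the NADPH-making pentose phosphate pathway, rose by 0.47 ± 0.05 (limma adjusted p = 2.08e-05). Txnrd1 at 0.80 lay above the list median and below the brightest probes of Nqo1, Srxn1, Gsta3, Gpx2 and Gstm1. It lay above the other probes of Srxn1 (0.58 and 0.45), Gsta3 (0.71) and Gstm1 (0.55), so this order depends on the probe. The other probe of Osgin1, at 0.14, and the other probes of Abcc1, at 0.08 and 0.18, did not pass.

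**Figure D4:**
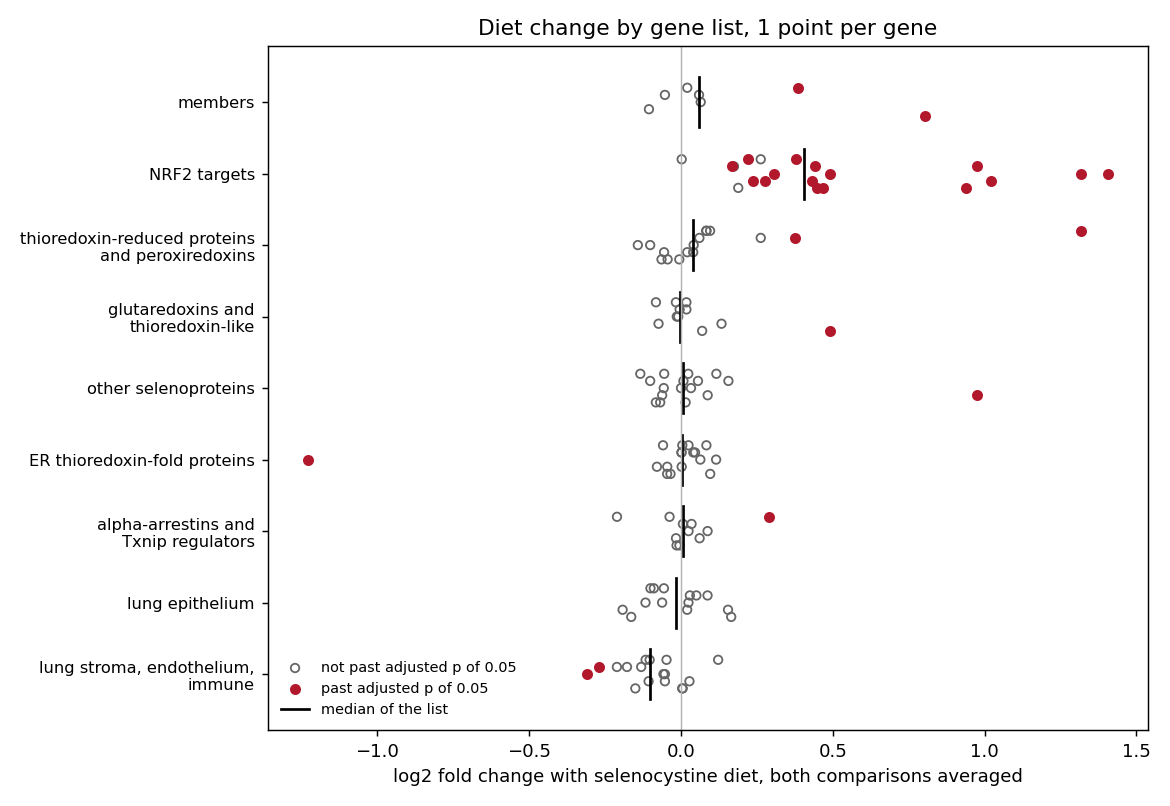
Log2 fold change with the selenocystine diet, both comparisons averaged (x axis), for each gene of 9 lists (y axis), with filled points past the adjusted p of 0.05, open points not past it and a black line at the list median. Most NRF2 targets lie right of 0, with 16 of 20 filled, while the thioredoxin, glutaredoxin, selenoprotein and endoplasmic reticulum lists centre near 0 with 1 or 2 filled points each.

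Markers of lung cell types were read on the same arrays. In the averaged diet comparison 0.569% of all probes were called higher and 1.59% lower. There 0 of 14 lung epithelium markers passed (list median -0.02). Of 17 markers of stroma, endothelium and immune cells 2 fell, Msln, a marker of mesothelium, by 0.27 ± 0.07 (limma adjusted p = 0.0396) and Col1a2, a fibroblast collagen, by 0.31 ± 0.08 (limma adjusted p = 0.0452), with a list median of -0.10. The other probe of Col1a2 gave -0.11 and did not pass (limma adjusted p = 0.191). The mean log2 ratio of those 17 ran from -0.19 to -0.12 in SECY mice, against -0.05 to 0.02 in Untreated mice, and from -0.10 to -0.05 in NNK+SECY mice, against -0.07 to 0.04 in NNK mice. None of the measured markers of skeletal muscle (6), cardiac muscle (7), fat (7) and red blood cells (5) passed. Their list medians were 0.15, -0.18, 0.04 and -0.16. All cardiac muscle and red blood cell markers lay below 0, while 5 of 6 skeletal muscle and 6 of 7 fat markers lay above it. In NNK over Untreated 1 marker of the stroma, endothelium and immune list rose, Cd3e of T cells, by 0.44 ± 0.08 (limma adjusted p = 0.0228), and its other probe gave 0.03. In NNK+SECY over NNK the log2 ratio of the same probe of Cd3e fell by 0.36 ± 0.08 (limma adjusted p = 0.0201), and its other probe gave 0.05. There the first probe changed by -0.08 in log2 Cy5 signal and by 0.28 in the log2 Cy3 signal of the pool. Most of that fall thus lay in the colour of the pool. In NNK over Untreated the same probe changed by 1.09 in Cy5 and by 0.66 in Cy3. The part of these markers in the rise of Txnrd1 and Txn1 was not tested.

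The probes most like Txnrd1 over the 16 arrays were sought among 24907 complete probes that are not members'. They were Srxn1 (Pearson r 0.992), Gstp1, a glutathione transferase (0.969 and 0.959 with 2 probes), Nqo1 (0.967) and Aox1, an aldehyde oxidase (0.951). Over deviations from the group means the same probes had 0.90, 0.59 and 0.41, 0.57 and 0.51, so that only part of the likeness stayed within groups and most of it for Srxn1. The log2 ratio of Srxn1 was 1.15 to 1.75 in SECY mice, against 0.01 to 0.16 in Untreated mice, and 1.20 to 1.71 in NNK+SECY mice, against 0.04 to 0.22 in NNK mice. These correlations share arrays and the pool, and describe this set of arrays only.

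**Figure D5:**
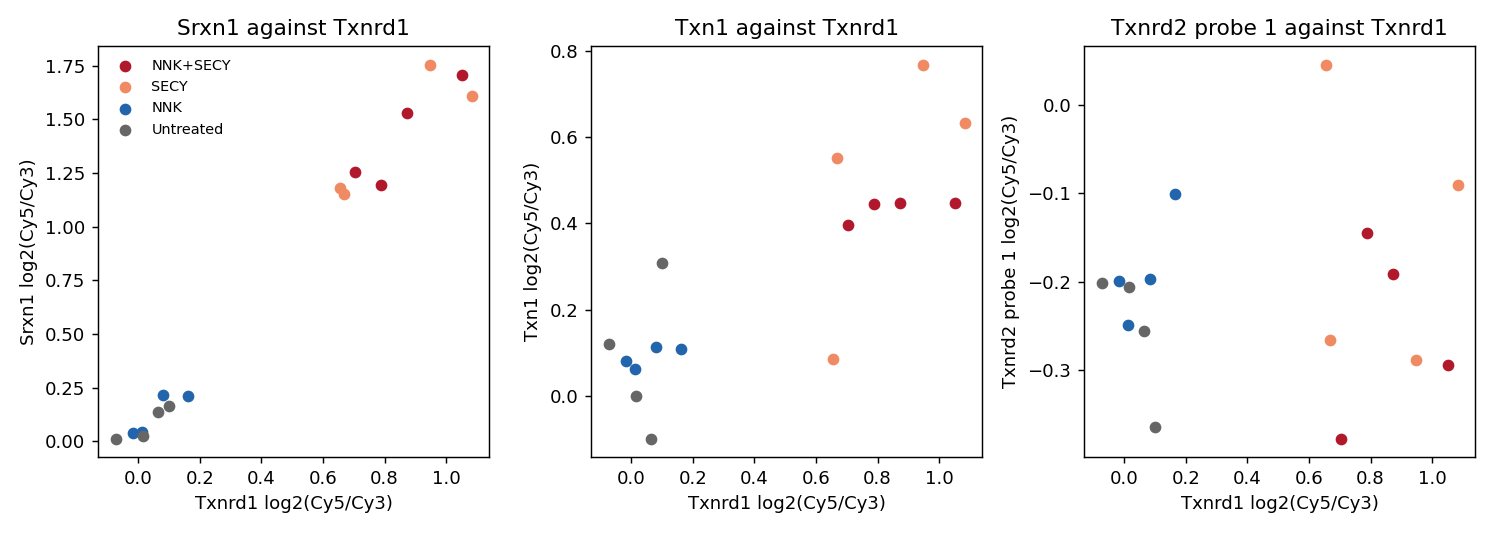
Log2 ratio of Srxn1, Txn1 and Txnrd2 probe 1 (y axes) against that of Txnrd1 (x axis), 1 point per array, coloured by group. Srxn1 follows Txnrd1 over the 16 arrays (r 0.992) and over deviations from the group means (r 0.90). Over the 16 arrays Txn1 follows with more scatter (r 0.84), and Txnrd2 probe 1 does not follow (r 0.08).

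Among the members, Txn1 had r 0.84 with Txnrd1 over the 16 arrays and 0.51 over deviations from the group means. Txn1 and Txndc1 probe 1 had 0.81 over deviations from the group means, and SECY 3 was low in both. The 2 Txnip probes had 0.66 and 0.73 on these measures. Among the probes most like Txnip probe 1 were Pkig (0.847), BC046331 (0.845), 4732495E13Rik and Marveld1 (0.819), in that order. Their averaged diet changes ran from -0.18 to -0.03, next to -0.11 for Txnip probe 1.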

How the data were processed

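The authors deposited the linear spot and background intensity of each colour for 16 arrays, which the file headers credit to version 8.1.1.1 of Feature Extraction. Beside them the authors gave processed signals and the log10 of red over green, and their deposited value table has the same ratio as log2, equal within 0.005. Positions of probes are not printed because the sources used here name no build for the array, and those of the promoter windows are the RefSeq table's own (GRCm38.p6). From the mean spot intensities, background was corrected with normexp (offset 50) and ratios were normalized by loess within arrays in R 4.3.3 with limma 3.58.1. A probe was tested where every array of some group had it well above background in Cy5, as log2 of Cy5 over Cy3, with lmFit and eBayes over all 16 arrays, Benjamini-Hochberg adjustment over all probes tested and a threshold of 0.05. Signals per colour were scaled with Aquantile after loess. The model fit recovered known changes in simulated log2 ratios with independent noise. Background correction, loess and slide effects were not part of that simulation. Replicates are separate mice per the labels, and the number of arrays limits the precision.

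The members and lists were chosen with earlier results of these data known. A list gene was represented by its brightest probe. Text names every member probe, up to 6 called genes per list and comparison by smallest p (2 of the smallest p where none passed), and the 5 probes most correlated with Txnrd1 and with Txnip. Some genes taken by this rule are not reported here, and Prdx1, Prdx3 and Gpx1 were named outside it, after their values were seen. Of the 12 member probes, 10 were named through their transcript record and 2 (Txnrd2 probe 1 and Txn2 probe 1) through the symbol.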

Additional observations from a re-analysis of the deposited data

Results flagged for a closer look

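Of the group values of the 12 member probes, 2 arrays lay far from the other 3 of their group, and such a gap is met by chance in about 1 of 20 groups. Txn1 was 0.3954 in NNK+SECY 3, just under the other 3 NNK+SECY arrays, of which the nearest was 0.446. Txndc1 probe 1 was 0.1335 in Untreated 1, above the other 3 Untreated arrays, of which the nearest was 0.0336.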

How the results depend on the processing

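Of 2017 values recomputed under the alternatives, 2000 kept their direction or stayed uncalled on the same side of the threshold, 16 passed it where they had not, 1 reversed and none lost a call. Txnrd1 passed in all 22 alternatives for SECY over Untreated, all 22 for NNK+SECY over NNK and all 29 for both averaged, where its change ran from 0.75 to 0.84. Txn1 passed in all 29 for both averaged (0.34 to 0.46). With Cy5 signal alone the change of the pool is not taken out, and Txndc1 probe 2 reversed to -0.158 with both averaged. Of 12 member probes 4 were then called in SECY over Untreated, against 7217 of all 30743 probes. The counts were 2 in NNK+SECY over NNK, against 2280 of 30744, and 5 in NNK+SECY over Untreated, against 4860 of 30748. With both averaged 6 were called, against 10441 of 30738, so these counts are to be read beside high shares over the whole array. With array weights 2 were called in each of SECY over Untreated (281 over the whole array), NNK+SECY over NNK (707) and NNK+SECY over Untreated (671). With only the arrays compared 2 were called in NNK+SECY over NNK, against 583 over the whole array. Leaving out each array in turn gave 1 to 2 in SECY over Untreated, the 2 without SECY 3. Over the whole array, probes called in SECY over Untreated ranged from 35 to 7217 and with both averaged from 512 to 10441, the highest with Cy5 signal alone.

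The labels do not say that a replicate number marks a batch, and correlations between arrays of the same number ran from -0.195 to 0.526. In the file headers, however, Untreated and NNK arrays of the same number carry 1 slide number, as do SECY and NNK+SECY arrays. With the slide number as a random block, or as a fixed block for the NNK comparisons and the interaction, no member call changed. With the replicate number as a block the members called were unchanged at 1, 1 and 2 for SECY over Untreated, NNK+SECY over NNK and both averaged. Probes called over the whole array in SECY over Untreated were 167 with the replicate block, against 87 without it. Changes of dim probes are bounded by the offset, as for Txnrd2 probe 3.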
